A study of Sus scrofa with 9 samples.

Results

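The HOX genes here are the 36 genes listed with a symbol of the 4 HOX clusters (HOXA, HOXB, HOXC or HOXD and a number). They were taken from the gene tables of 5-hydroxymethylcytosine (5hmC) in swine mesenchymal stem/stromal cells (MSCs). All 36 were among the 18933 genes of the table of Obese- and Lean-MSCs, and 35 were among the 18992 genes of the table of vitamin-C treated and untreated Obese-MSCs, where HOXC12 was not listed. HOXA had 11 listed genes, HOXB 8, HOXC 9 and HOXD 8. HOXB4, HOXB9 and HOXD4 were not listed by symbol in either table, so no count, median or cluster sum here includes them. No rule on measured values was used to choose the 36 genes.

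HOX genes encode homeodomain transcription factors that give cells a position along the body axis. Their order along the chromosome follows the order in which they are used from head to tail, and they are numbered accordingly in paralog groups 1 to 13. Groups 1 to 3 are called anterior here, 4 to 8 central and 9 to 13 posterior. Stromal and fat cells keep a depot-specific HOX pattern in culture, and the clusters are known to be controlled by Polycomb repression and DNA methylation. 5hmC is made from 5-methylcytosine by the TET dioxygenases, for which vitamin-C is a cofactor.

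MSCs came from subcutaneous abdominal fat of female domestic pigs that were 3 months old when the diets began. Lean pigs ate standard chow, and Obese pigs a high-fat/high-fructose diet for 16 weeks. hMeDIP-seq, in which an antibody to 5hmC captures DNA fragments for sequencing, was done on 3 Lean libraries (7, 8 and 9), 3 untreated Obese libraries (1, 2 and 3) and 3 Obese libraries (4, 5 and 6) from cells given vitamin-C (50 µg/mL, 48 h). By the study's methods the Obese cells, treated or not, were grown for a further passage after the third. No allele or transgene is involved. The labels do not say which treated culture shares an animal with which untreated culture, so the n of 3 in the vitamin-C comparison may not be independent between groups.

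Every value is a normalized count over the exons of a gene, and low values cluster near a step of 0.739 to 1.29 by library, taken here as an estimate of what a single read is worth. Some values lie far below that step, so reads could not be recovered gene by gene. Library totals ran from 494566 to 522269 normalized counts in the first table and from 547242 to 593846 in the second. The tables were normalized separately, and the untreated Obese libraries stand in both. The HOX share of a library was 0.122% to 0.151% in the first table and 0.132% to 0.160% in the second. A change in the share of cells that carry the mark cannot be told apart from a change in the mark per cell. As a check of the cell type, the MSC surface marker genes ENG, NT5E and THY1 had group means of 17.1 to 57.3 in the first table. The leukocyte gene PTPRC had 35.9 to 68.5 by library and the progenitor marker CD34 13.4 to 23.8, while CD14, a monocyte marker, had at most 4.49 there. These are levels of a DNA mark and not of RNA, so they do not show which cells were present. ENG ran from 52.0 to 67.4 in the untreated Obese and from 31.9 to 51.7 in the Lean libraries, and CD14 was listed at 0 in the Lean libraries and at 0.650 to 4.49 in the untreated Obese libraries. All Obese values lay above all Lean values in 5.7% of all genes, and the CD14 mean of 2.02 in Obese-MSCs is too low to be interpreted. NT5E, THY1, CD34 and PTPRC overlapped between these groups, with Obese over Lean ratios of 1.15, 1.28, 1.05 and 0.792. The part of any of these genes in the HOX values was not tested.

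On the porcine assembly Sscrofa11.1, HOXA lies on chromosome 18, HOXB at chr12:24784953-24950661, HOXC at chr5:19151096-19268267 and HOXD at chr15:81893997-81990026. Several annotated spans overlap. HOXA3 overlaps HOXA4, HOXA5 and HOXA6, and HOXA5 overlaps HOXA6 by 257 bp. HOXD9 (chr15:81910415-81926276) contains the whole 9793 bp of HOXD10 and overlaps HOXD11 by 351 bp. Whether reads in shared exons were given to a gene, to each gene or to none is not known here.

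The 5hmC signal differed widely among HOX genes. In the table of Obese- and Lean-MSCs, 20 of 36 HOX genes lay above the median of all genes, and the median HOX level was 15.3 normalized counts beside 12.6 over all genes. Per kb of gene span, 31 of 36 lay above the median of all genes and 14 among the upper 10% of genes. The median HOX gene spans 4.04 kb and the median gene 21.6 kb, and introns count in a span but not in the values, so the level per kb is highest for compact genes. Levels per kb were highest in anterior and lowest in posterior genes, with medians of 4.64 per kb for the 8 anterior genes, 3.13 for the 13 central genes and 0.989 for the 15 posterior genes. The second table had the same order, with 4.97, 3.44 and 1.55. This order is a description without a test. The study's methods describe no correction of these counts for input DNA, and exon lengths were not at hand. Differences between genes or clusters in level may therefore not be differences in the mark.

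HOXD3, an anterior gene of axial and neural crest patterning, had the highest level per kb of the HOX genes, with a median of 10.2 over the 6 libraries of the first table and 14.9 in the second, and was the highest HOXD gene in 6 of 6 libraries of each. HOXB2, which helps pattern the hindbrain, was the highest HOXB gene in 6 of 6 libraries of each table, at a median of 9.70 and 11.3 per kb. HOXC6 had the largest normalized counts of any HOX gene, with 113, 91.9 and 93.1 in the untreated Obese against 69.2, 97.3 and 75.0 in the Lean libraries. HOXC6 was the highest HOXC gene per kb in 5 of 6 libraries of the first table and 6 of 6 of the second. In HOXA, HOXA2 had the highest level per kb in the second table, at a median of 7.64, and in 3 of its 6 libraries, so that the top of HOXA kept no fixed order.

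At the other end, HOXB1, HOXC12, HOXD12, HOXA7 and HOXB13 had group means of 3 normalized counts or less in each group of the first table, which is a few estimated reads. HOXB1, HOXB13, HOXA7 and HOXD12 were as low in the second table. HOXB1 was listed at 0 in the 3 Lean libraries and at 0, 0.952 and 1.15 in the untreated Obese libraries. HOXA7 ran from 0 to 3.30 by library in the first table, and HOXC12 and HOXD12 reached at most 1.99 and 2.17. HOXC9 had the lowest median level per kb of HOXC over the libraries of the second table, being the lowest in 3 of 6, though its mean level per kb of 0.887 was above the 0.690 of HOXC13. It had 9.04, 1.80 and 0 normalized counts in the treated and 3.51, 2.16 and 1.42 in the untreated libraries, which overlapped. Of all genes, 13.3% were that low in the first table and 11.8% in the second, beside 13.9% and 11.4% of HOX genes. Raw depth is unknown, so differences in the genes with means of 3 or less in each group were not interpreted.

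**Figure D1:**
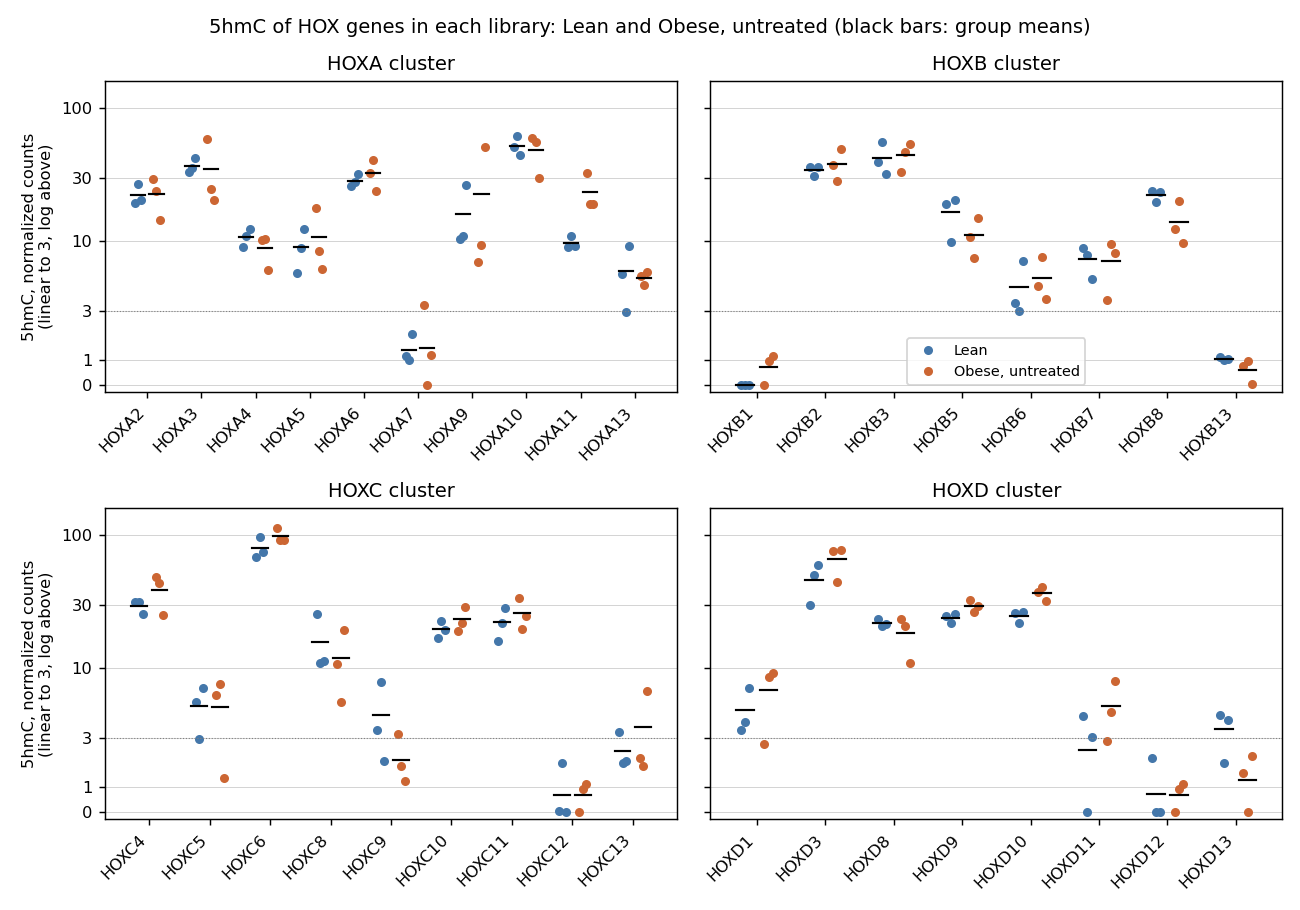
5hmC of HOX genes (x axis, by paralog number) in normalized counts (y axis, linear up to 3 and logarithmic above) in the 3 Lean and 3 untreated Obese libraries, with black bars at the group means, in a panel for each cluster. HOXA11 and HOXD10 have untreated Obese points that all lie above the Lean points, and the points of most other genes overlap; 35 of 36 genes are drawn.

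The comparison of untreated Obese- with Lean-MSCs asks whether diet-induced obesity alters 5hmC. Of 36 HOX genes, 2 met the study's criteria for high 5hmC, a p-value without adjustment of at most 0.05 together with Obese over Lean means of 1.4 or more, where 2.07% of all genes met them. These were HOXA11 and HOXD10. None of 36 met the criteria for low 5hmC, a ratio of at most 0.7 with the same p-value, beside 2.43% of all genes. The criteria were applied anew to the deposited values, so the calls are not the study's own gene lists. Fewer genes met them here, high or low, than the study reports. With a library left out, 1 HOX gene met the criteria for low 5hmC in 3 of the 6 cases: HOXA3 without Obese library 1, HOXB8 without Obese library 2 and HOXD13 without Lean library 8. Of all genes, 2.01%, 2.04% and 2.53% were low in these cases. In the last 2 of these cases neither HOXA11 nor HOXD10 met the criteria for high 5hmC. No HOX gene passed limma with Benjamini-Hochberg adjustment across all genes, of which 0% passed, and 2 of the 28 HOX genes tested (HOXA11 and HOXB8) were at or under 0.05 by limma before adjustment, beside 6.81% of all genes tested.

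HOXA11 is a posterior gene needed for forearm and uterine development and lies at chr18:45388523-45392190. Its normalized counts were 32.4, 18.9 and 19.1 in the untreated Obese against 9.09, 10.9 and 9.25 in the Lean libraries. The groups did not overlap, and Obese library 1 was the highest. Obese-MSCs had a mean of 23.5 ± 7.77 and Lean-MSCs of 9.75 ± 1.02 (SD, 3 libraries a group), so that the ratio was 2.41. By limma the log2 fold change was 1.15 with an SE of 0.32 and an adjusted p of 0.668, and the two-sided exact permutation test gave its smallest possible p of 0.1. With a library left out, HOXA11 still met the study's criteria without Obese library 1, at a log2 ratio of 0.96. Without any of the other 5 its p rose above the threshold, to at most 0.105, and its log2 ratio was at most 1.4.

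HOXD10, a posterior gene of limb and hindlimb motor neuron patterning, had 37.3, 40.8 and 32.0 normalized counts in the untreated Obese against 26.0, 21.8 and 26.7 in the Lean libraries. All Obese values lay above all Lean values, and the spread within each group was small. Obese-MSCs had a mean of 36.7 ± 4.45 and Lean-MSCs of 24.8 ± 2.62 (SD, 3 libraries a group), so that the ratio was 1.48. By limma the log2 fold change was 0.54 with an SE of 0.26 and an adjusted p of 0.734, and the exact permutation p was 0.1, the smallest possible. Leaving out Obese library 1, Obese library 2 or Lean library 8 meant that HOXD10 no longer met the study's criteria, and its log2 ratio ran from 0.48 to 0.65 as each library was left out.

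HOXD9, a posterior gene also used in the limb, whose span contains HOXD10, had 32.8, 26.5 and 29.4 normalized counts in the untreated Obese against 24.9, 21.8 and 25.7 in the Lean libraries. These groups did not overlap either, but the ratio of 1.23 was under the criterion. The sum of HOXD9 and HOXD10, whose meaning depends on whether shared reads were split, left out or counted for each, was 70.1, 67.3 and 61.4 in the Obese against 50.8, 43.7 and 52.4 in the Lean libraries. The sums did not overlap, with a log2 ratio of 0.44. HOXD9, HOXD10 and HOXA11 were the 3 HOX genes whose Obese values were all above the Lean values, where 5.7% of all genes had this.

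All Obese values lay below all Lean values in 2 of 36 HOX genes, beside 6.06% of all genes, and neither met the criteria for low 5hmC. HOXB13, at no more than 1.14 normalized counts in any library of the first table, was among them. HOXB8, a central gene with roles in blood and spinal cord, had 12.3 and 9.66 normalized counts in Obese libraries 1 and 3 and 19.9 to 23.7 in the Lean libraries, and Obese library 2 lay just above the lowest Lean library. Its unadjusted limma p was 0.0414 (adjusted p 0.708). HOXD13 had 1.57, 0 and 2.28 in the Obese against 4.48, 1.98 and 4.10 in the Lean libraries, so its Obese mean was below 3 counts and its level in Lean-MSCs was 1.17 times that floor.

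**Figure D2:**
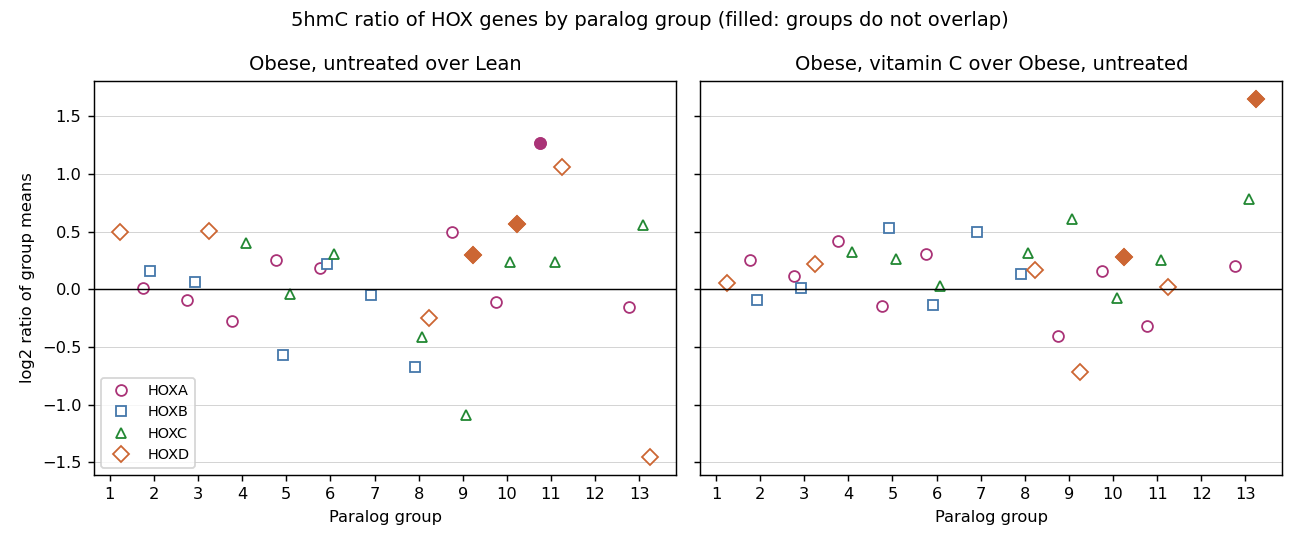
The log2 ratio of group means (y axis) of HOX genes with a mean above 3 normalized counts in at least 1 group, by paralog group (x axis) and cluster (symbol), for untreated Obese- over Lean-MSCs and for vitamin-C treated over untreated Obese-MSCs. Filled symbols are genes whose groups do not overlap. HOXD13 and HOXC9 rest on a group mean below 3 in each panel, and HOXC13 and HOXD11 do in the panel of Obese- over Lean-MSCs.

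Read as a set, the HOX genes had a small positive median. Among the 31 HOX genes with a mean above 3 in at least 1 group, 18 were higher and 13 lower in Obese-MSCs, with a median log2 ratio of 0.16 beside 0.0055 over all genes, of which 50.6% were higher. The ratio stayed between 0.7 and 1.4 in 20 of the 31. The median was 0.50 in HOXD, 0.24 in HOXC, 0.0076 in HOXB and -0.039 in HOXA, and by class it was 0.27 in posterior, 0.067 in anterior and -0.047 in central genes. Without the genes whose spans overlap, the median over HOX genes was 0.041, and it was 0.033 without Obese library 2, 0.062 without Lean library 7 and 0.25 without Lean library 9. The summed HOXD signal was 178, 147 and 170 in the Obese against 119, 121 and 148 in the Lean libraries, a ratio of 1.28 with a narrow overlap. The sums of HOXA, HOXB and HOXC had ratios of 1.06, 0.945 and 1.17, and their groups overlapped too.

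The comparison of vitamin-C treated with untreated Obese-MSCs asks whether vitamin-C modulates 5hmC in these cells. The paper states that its growth medium already held some vitamin-C, so untreated cells were not free of it, and that the effect might be underestimated. No HOX gene of 35 met the study's criteria for high or for low 5hmC, where 1.11% of all genes were high and 0.806% low. No HOX gene passed limma with adjustment, beside 0% of all genes, and 1 of 29 tested, HOXD9, was at or under 0.05 before adjustment, beside 0.974% of all genes tested. The values of the treated libraries were all above those of the untreated in 2 of 35 HOX genes, HOXD10 and HOXD13, beside 3.24% of all genes, and all below them in 0 of 35, beside 2.67%.

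**Figure D3:**
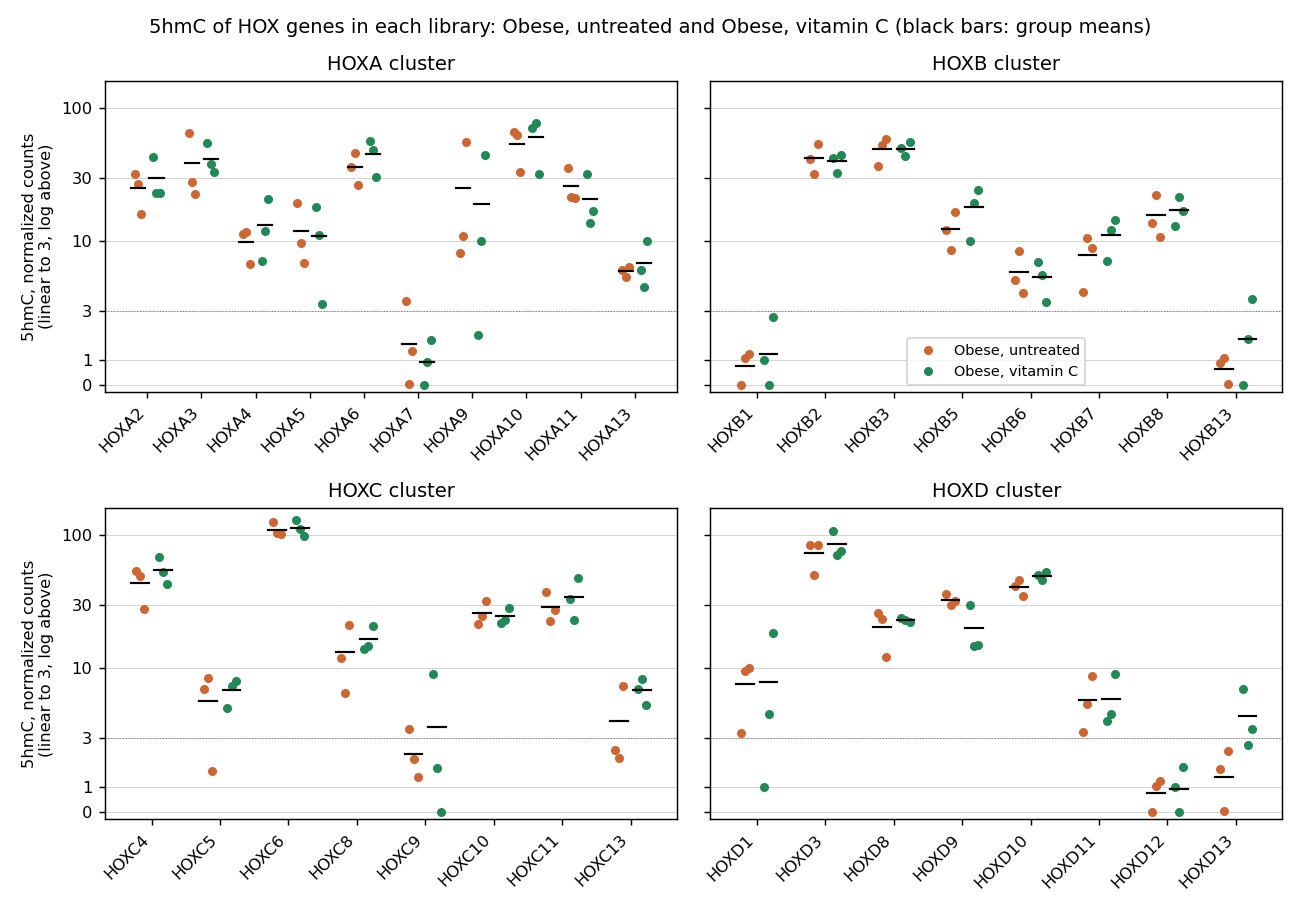
5hmC of HOX genes (x axis) in normalized counts (y axis, linear up to 3 and logarithmic above) in the 3 untreated and 3 vitamin-C treated Obese libraries, with black bars at the group means, in a panel for each cluster. HOXD10 and HOXD13 have treated points that all lie above the untreated points, and in HOXA9 the spread within each group is far wider than the difference between the groups.

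HOXD9 and its contained neighbour HOXD10 had ratios on opposite sides of 1, and neither met the criteria. HOXD9 had 30.2, 14.7 and 15.1 normalized counts in the treated libraries and 36.4, 30.1 and 32.4 in the untreated libraries. Treated libraries 5 and 6 were far below every untreated library, while treated library 4 was just above the lowest. The ratio was 0.607, with a p of 0.0747 in the study's test, and the limma log2 fold change was -0.77 with an SE of 0.32, an unadjusted p of 0.0311 and an adjusted p of 1.00. Without treated library 4, HOXD9 met the criteria for low 5hmC. HOXD10 had 50.3, 46.2 and 52.8 in the treated libraries and 41.5, 46.1 and 35.2 in the untreated libraries, a ratio of 1.22 with groups that met without overlapping. Its limma log2 fold change was 0.28 with an SE of 0.25 and an adjusted p of 1.00, and its exact permutation p was 0.1, the smallest possible. The sum of both genes was 80.5, 61.0 and 67.9 in the treated libraries and 77.8, 76.1 and 67.6 in the untreated libraries. These sums overlapped, with a log2 ratio of -0.082. The part of shared reads in these opposite ratios was not tested.

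HOXD13, the gene at the posterior end of the cluster and a digit patterning gene, had 7.04, 2.73 and 3.54 normalized counts in the treated libraries and 1.74, 0.0225 and 2.47 in the untreated libraries. The groups did not overlap, but the values are low, and the treated mean was 1.48 times the floor of 3 counts. The untreated Obese libraries of this comparison are those compared with Lean-MSCs above. HOXA11 had 32.2, 13.8 and 16.9 in the treated libraries and 35.7, 21.5 and 21.0 in the untreated libraries. Its groups overlapped and the ratio was 0.803. HOXC13, another posterior gene, with roles in hair and nail, had 7.04, 8.37 and 5.30 in the treated and 2.51, 2.19 and 7.36 in the untreated libraries, and met the criteria for high 5hmC only without untreated library 3.

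Most HOX genes had a slightly higher mean after vitamin-C. Of the 31 with a mean above 3 in at least 1 group, 24 were higher and 7 lower, with a median log2 ratio of 0.17 beside 0.0052 over all genes, of which 50.7% were higher. The ratio lay between 0.7 and 1.4 in 25 of the 31. The median was positive in each cluster, at 0.29 in HOXC, 0.17 in HOXD, 0.14 in HOXA and 0.071 in HOXB. By class it was 0.29 in central, 0.18 in posterior and 0.056 in anterior genes. It ran from 0.13 to 0.29 when each library was left out, with 0.29 without untreated library 1. The cluster sums had ratios of 1.06 in HOXA, 1.07 in HOXB, 1.11 in HOXC and 1.08 in HOXD, and the groups overlapped in each. Matched by the libraries that varied together (treated 4, 5 and 6 with untreated 1, 2 and 3), the summed signal was higher with treatment in each match in HOXC, by 25.7, 22.2 and 30.3 normalized counts, in HOXA, by 3.87, 23.2 and 17.7, and in HOXD, by 29.2, 0.807 and 12.4. In HOXB the differences were 16.5, -1.13 and 11.5. Among the 31 HOX genes, 5 were higher with treatment in all 3 matches (HOXA6, HOXB7, HOXC4, HOXD10 and HOXD13), beside 11% of all genes with a mean above 3, and 3 were lower in all 3 (HOXA9, HOXA11 and HOXD9), beside 11.6%. The matching was chosen from these data and is not given by the labels, so these are descriptions without a test. Neighbouring genes share a locus and all genes share the same libraries, so these counts are not independent observations.

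The spread between libraries of a group was wider than either group difference in several members. HOXA9, a posterior gene central to blood cell development, had 6.96, 9.32 and 51.3 normalized counts in the untreated Obese against 10.4, 10.9 and 26.6 in the Lean libraries. In the second table it had 2.03, 10.0 and 44.6 in the treated and 8.23, 10.9 and 56.0 in the untreated libraries. A single library was high in each group: Lean 9, untreated 3 and treated 6. Its SD on the log2 scale within groups was larger than in 99.3% of genes in the first table and 99.99% in the second. HOXC5 also had a spread among the upper 10% of genes in each table, HOXC8 and HOXD11 in the first and HOXA5 and HOXD1 in the second, while HOXD10 was among the lower 10% in each. These ranks were not matched on level. HOXC5, HOXD11 and HOXD1 had group means there from 2.50 to 7.96 normalized counts, and HOXD10 from 24.8 to 49.8. Over the HOX genes the median within-group SD was 0.39 in the first table and 0.44 in the second, beside 0.38 and 0.40 over all genes.

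The treated and untreated Obese libraries also varied together. Across the 29 HOX genes with a mean above 3, the deviations of treated library 4 from its group mean had a Pearson r of 0.74 with those of untreated library 1. For treated 5 and untreated 2 the r was 0.32, and for treated 6 and untreated 3 it was 0.62. The other 6 combinations gave 0.00 or negative values, down to -0.70. Across all 16233 genes with a mean above 3 the same 3 combinations had an r of 0.23, 0.30 and 0.13, and the other 6 were negative. In HOXA alone the 3 values were 0.88, 0.29 and 0.85 over 10 genes, and without HOXA9 the HOX values were 0.66, 0.34 and 0.46. Untreated Obese and Lean libraries, which come from different pigs, also gave r values well away from 0. Between them r ran from -0.30 to 0.34 over 30 HOX genes and from -0.62 to 0.69 over 10 HOXA genes. It reached 0.41 over HOX genes without HOXA9, and ran from -0.10 to 0.080 over all 15845 genes with a mean above 3. These points share clusters and libraries and the deviations within a group sum to 0, so the correlations are a description. Whether the libraries that vary together come from the same animals is not given in the labels.

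**Figure D4:**
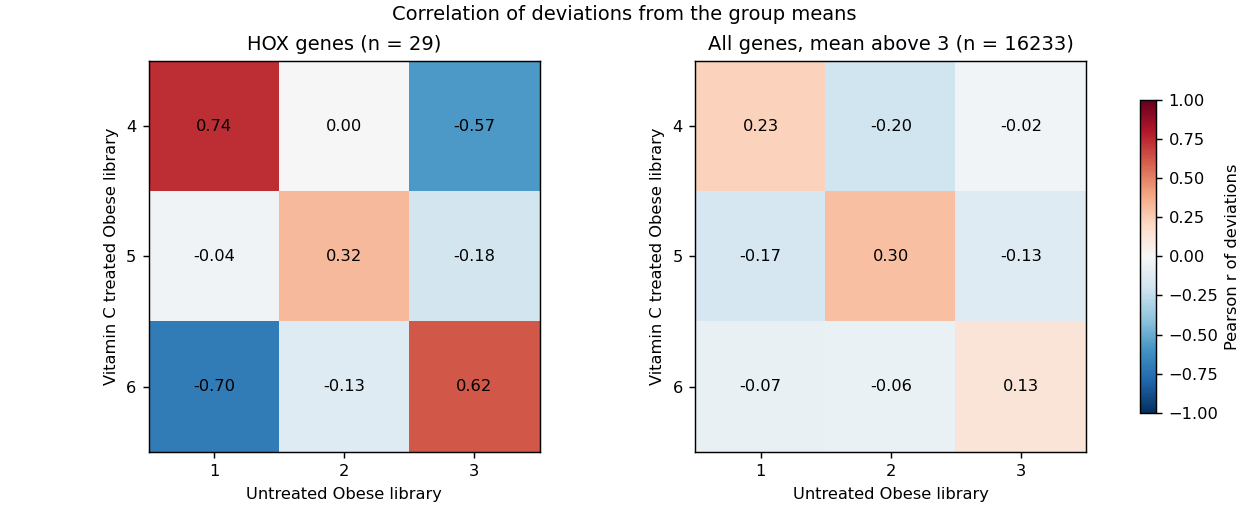
Pearson r between the deviations from the group mean of each treated (rows) and each untreated (columns) Obese library, across 29 HOX genes (left) and across 16233 genes (right). The values on the diagonal, 0.74, 0.32 and 0.62 for HOX genes, are the highest of their rows.

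The clusters were compared with one another in each library by the summed normalized counts over the summed gene span. HOXC and HOXD were each above HOXA and HOXB in 12 of 12 library columns of the 2 tables. The 3 untreated Obese libraries stand in both tables, so these 12 columns come from 9 libraries. In Lean-MSCs the level per kb was 2.85 ± 0.25 in HOXC, 2.72 ± 0.34 in HOXD, 2.33 ± 0.21 in HOXA and 2.24 ± 0.06 in HOXB (SD, n = 3). In untreated Obese-MSCs of the same table it was 3.33 ± 0.35, 3.47 ± 0.34, 2.46 ± 0.45 and 2.12 ± 0.33, in the same order. The second table was normalized separately and lists 8 HOXC genes, so its levels are not comparable with those of the first. There untreated Obese-MSCs had 3.85 ± 0.40, 3.86 ± 0.33, 2.74 ± 0.49 and 2.36 ± 0.35. Treated Obese-MSCs had 4.28 ± 0.40, 4.16 ± 0.62, 2.90 ± 0.40 and 2.52 ± 0.33, again in the order HOXC, HOXD, HOXA and HOXB. HOXC was above HOXD in 5 of 12 columns and HOXA above HOXB in 8 of 12, so these neighbours did not keep an order. The place of HOXA depends on its long genes: HOXA3, at 46.3 kb, holds much of the summed span of 92.1 kb in HOXA. With the longest gene of each cluster left out together (HOXA3, HOXB3, HOXC4 and HOXD9), HOXA was the highest cluster in 8 of 12 columns. HOXC and HOXD were then each above HOXA and HOXB in 3, untreated library 3 in each table and treated library 6. In this setting HOXB was below the other clusters in every column, which it was not against HOXA with all genes included. Only the place of HOXC and HOXD above HOXB was kept. By the median of the genes per kb HOXA was the highest in 12 of 12, and HOXB was not always the lowest, with HOXD below it in the order HOXA, HOXC, HOXB and HOXD in 4.

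**Figure D5:**
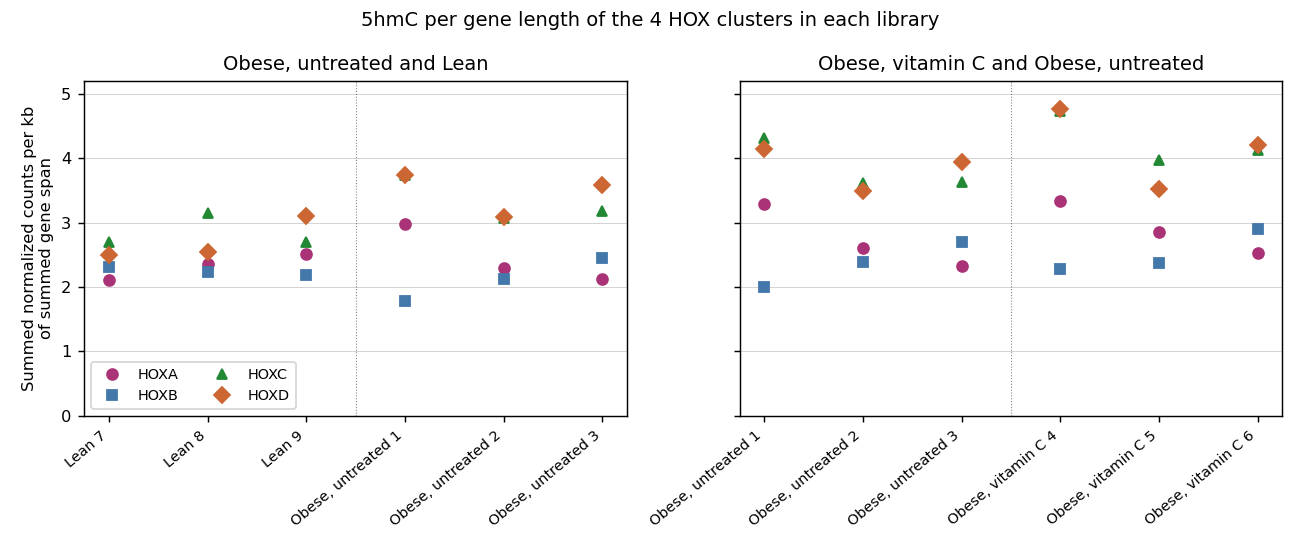
Summed normalized counts per kb of summed gene span (y axis) of each HOX cluster (symbol) in each library (x axis) of the 2 tables, which were normalized separately. HOXC and HOXD lie above HOXA and HOXB in every column, with the long HOXA3 included.

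HOX proteins bind DNA with cofactors of the PBX, MEIS and PKNOX families. Of the 9 cofactor genes, 0 met the criteria for high or low 5hmC in either comparison. At the shares of all genes that met them (2.07% high and 2.43% low with obesity, 1.11% and 0.806% with vitamin-C) a count of 0 among so few genes is near the background. Their median log2 ratio was 0.079 in Obese- over Lean-MSCs and 0.054 in treated over untreated Obese-MSCs. MEIS1 was the highest in the first table, at a mean of 148 normalized counts in Obese- and 123 in Lean-MSCs. The values of PBX4 were 14.1, 19.5 and 17.0 in the treated and 25.2, 20.4 and 19.6 in the untreated libraries, which narrowly did not overlap. Treated values lay all below the untreated in 1 of the 9 cofactor genes, beside 2.67% of all genes, and all above in 0. Of the ParaHox genes and the EVX genes next to the clusters, 7 were listed in the first table and 8 in the second, and 0 met the criteria, beside the same shares of all genes. Means in the first and second table were low for 5 of the 7 and 6 of the 8, at 3 or less in each group, so most were too low to be compared. CDX4 and GSX2 were the 2 with a mean above 3 in a group, in each table. CDX4 had means of 9.47 in Obese- and 12.5 in Lean-MSCs. EVX1 and EVX2, which lie beside HOXA13 and HOXD13, had group means of at most 1.24 in either table.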

How the data were processed

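hMeDIP-seq of 9 libraries in 3 groups was analysed. The authors deposited 2 tables of normalized counts per gene, a signal over exons: paired reads were aligned with Bowtie 2 (2.3.3.1) to susScr 11.1, PCR duplicates removed with Picard (1.67), reads counted with htseq-count (HTSeq 0.9.1) and processed with edgeR (3.28.1), per the labels and methods. Whole reads could not be recovered for nearly all genes (the read step is an estimate from low values), so no count test was run and raw depth is unknown. In the vitamin-C table, 645 numerical residues below 1e-06 were set to 0.

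The study's criteria, applied anew, were a two-sided equal-variance test per gene on deposited values (unadjusted p-value at most 0.05, ratio at least 1.4 or at most 0.7). limma 3.58.1 (R 4.3.3) with a trend was fitted to log2(value + 1) over the 80% of genes with the highest mean, adjusted by Benjamini-Hochberg; such fold changes understate those of low genes. Other fold changes are ratios of group means without a pseudocount. Exact permutation tests had 20 arrangements and a smallest p of 0.1. P-values measure only the spread between these libraries. The tests across all genes were tested on simulated data. Python 3.11.15, numpy 2.4.6, pandas 2.3.3, scipy 1.17.1 and matplotlib 3.10.9 were used. Gene positions came from RefSeq (Sscrofa11.1) by symbol. No gene sequence was used here.

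HOX genes named in full met the criteria, had groups that did not overlap (highest and lowest 3 ratios, with a group mean above 3), or had the highest or lowest level per length in a cluster. Some genes are in the counts but not reported here by name or drawn. Other HOX genes, and PBX4 among the cofactors, were named after their values were seen. Members, lists and tests were chosen with earlier results of these data known. Alternatives were other thresholds, filters, pseudocounts, variance models, scalings and each library left out; a block of matched libraries, exclusion of overlapping spans and of the longest gene were added after seeing the data.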

Additional observations from a re-analysis of the deposited data

How the results depend on the processing

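The 2 HOX genes that met the criteria in Obese- over Lean-MSCs became 0 at a p-value threshold of 0.01, where 0.454% of all genes were high and 0.687% low. They became 1 (HOXA11) at a ratio of 2 or more, beside 0.829% high and 1.02% low at 0.5 or less. With unequal variances there was 1 (HOXD10), beside 1.43% and 1.82%, and without genes of overlapping span 1 (HOXA11). With each library left out there were 1 to 3 in either direction, beside 1.42% to 2.58% of all genes high and 2.01% to 2.65% low. Without Obese library 1 these were HOXA11 and the near-zero HOXB1 (high) and HOXA3 (low), without Obese library 2 HOXB8 (low), without Obese library 3 HOXC4 and HOXD10 (high), without Lean library 8 HOXD13 (low), and without Lean library 7 or 9 HOXD10 (high). In the vitamin-C comparison the 0 HOX genes became 0 to 1 with each library left out, HOXD9 low without treated library 4 and HOXC13 high without untreated library 3. Of all genes, 0.895% were low in the first of these cases and 1.07% high in the second. The median log2 ratio in Obese- over Lean-MSCs was 0.067 over all HOX genes above 0 in both groups, 0.041 without overlapping spans and 0.033 to 0.25 with each library left out; in the vitamin-C comparison it was 0.13 to 0.29 with each library left out. Rescaling by size factors and quantile normalization changed no call of a HOX gene by the study's criteria. HOXC and HOXD were each above HOXA and HOXB in 12 columns per kb, in 0 by the sum without length, in 0 by the median of the genes per kb and in 3 with the longest gene of each cluster left out. In that last setting HOXB was the lowest cluster in every column, while per kb with all genes HOXA was above HOXB in only 8 of 12. The count of HOX genes passing limma was 0 in every alternative run; the smallest adjusted p in Obese- over Lean-MSCs was that of HOXA11, 0.668, and ran from 0.495 to 0.961 over the alternatives.

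Treated and untreated libraries have no shared replicate numbers in the labels, so which of them, if any, share an animal is not known. A limma fit with a replicate block for the libraries that vary together (treated 4, 5 and 6 with untreated 1, 2 and 3), chosen after seeing the data, passed 0 HOX genes, and HOXD9 had an unadjusted p of 0.00892 in it. Raw depth is unknown, so values of about 3 normalized counts or less were not interpreted.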
